A study of Bos taurus with 29 samples.

Results

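The 7 genes described here encode the receptor for C-type natriuretic peptide (CNP) and the steps by which an oocyte makes cyclic AMP. They are NPR2 (the CNP receptor), GPR3 and GPR12 (receptors that switch on adenylyl cyclase), GNAS (the stimulatory G protein alpha subunit) and ADCY3, ADCY6 and ADCY9 (adenylyl cyclases). They were chosen by name for their place in this pathway, out of 13502 genes in the deposited table. All 7 had a row, and all 7 passed the filter on low values (1 or more CPM, counts scaled to the library total, in no fewer than 6 libraries), as did 11852 genes in all.

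CNP is made by the somatic cells of the follicle and binds NPR2, a guanylyl cyclase known mainly from the cumulus and granulosa cells around the oocyte. The cyclic GMP that NPR2 makes passes through gap junctions into the oocyte, where it inhibits the phosphodiesterase PDE3A and so protects cyclic AMP. The oocyte makes that cyclic AMP itself: GPR3 and GPR12 are active without a known peptide ligand, they couple to the stimulatory G protein, and its alpha subunit activates adenylyl cyclases. High cyclic AMP holds the oocyte in meiotic prophase, and its decline lets meiosis resume.

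Messenger RNA was measured in single oocytes of wild type cattle whose donors had been given follicle stimulating hormone (FSH). Germinal vesicle (GV) oocytes were stripped of cumulus cells at collection. Oocytes of the conventional group (IVM) were cultured within their cumulus for 22 h with FSH at 5 µg/mL and epidermal growth factor (EGF) at 50 ng/mL. Oocytes of the remaining group (CNP_IVM) had the same 22 h after 6 h with 200 nM CNP and FSH but no EGF. Matured oocytes of both kinds were collected with a polar body, at metaphase II. No group had the first 6 h without CNP, so CNP, the absence of EGF in that step and a total of 28 h against 22 h in culture cannot be told apart.

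Values were at hand for 7 GV, 8 IVM and 7 CNP_IVM oocytes, with library totals of 20159662 to 39340040 reads. A library held a single oocyte, and nothing in the labels ties oocytes to donors or cultures. Those of a group may come from 1 animal, so a group counted as 1 sample and no p-value is given. Levels are shares of libraries made by priming on poly(A) tails, so transcript amount, tail length and changes in the rest of the library cannot be told apart. The labels of GV replicate 9 conflict, its title naming GV and its treatment in vitro maturation. In it 9381 genes reached 1 CPM, against 11311 to 11798 in the remaining GV oocytes, so the GV values of the 7 genes are given with and without it. IVM oocytes had 9431 to 10783 such genes and CNP_IVM oocytes 9429 to 9834. All 14 oocyte markers averaged at least 1 CPM in every group, with sums of 22895 to 27957 CPM per GV, 25621 to 42632 per IVM and 32914 to 49367 per CNP_IVM oocyte. BTG4 alone made up 9807, 19952 and 32075 CPM of the mean sums, and the other 13 markers summed to 16046 CPM in GV (15007 without replicate 9), 11386 in IVM and 7244 in CNP_IVM oocytes. Of 26 cumulus and granulosa markers 20 had a row, none of them at 0 in every oocyte of a group, and their sums were 704 to 1321 CPM in GV, 415 to 734 in IVM and 286 to 359 in CNP_IVM oocytes. STAR, a cholesterol transporter of steroid-making cells, carried most of these differences, at a mean of 657, 316 and 93.9 CPM, and the other 19 markers summed to 241 CPM in GV (184 without replicate 9), 252 in IVM and 225 in CNP_IVM oocytes. Of 11 blood and immune markers 5 had a row, and they summed to 173 to 362 CPM in GV, 8.42 to 46.8 in IVM and 3.53 to 25.7 in CNP_IVM oocytes. VWF alone made up 225, 21.1 and 11.2 CPM of the mean sums. The other 4 summed to 30.9 CPM in GV (25.2 without replicate 9), 4.18 in IVM and 1.58 in CNP_IVM oocytes.

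The 7 genes did not move as a block. After conventional maturation NPR2 was lower than in GV oocytes, while GPR3, GPR12 and ADCY3 averaged somewhat higher. After CNP pre-maturation GPR3 and GPR12 were at least 2-fold lower than after conventional maturation, GPR3 most. NPR2 and GNAS averaged higher, GNAS 2.10 times in plain CPM, but both were under 2-fold once 1 CPM was added to each mean. ADCY3 was the only one of the 7 whose CNP_IVM values all lay above its GV values, and ADCY6 and ADCY9 differed little beyond the scatter between oocytes.

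**Figure D1:**
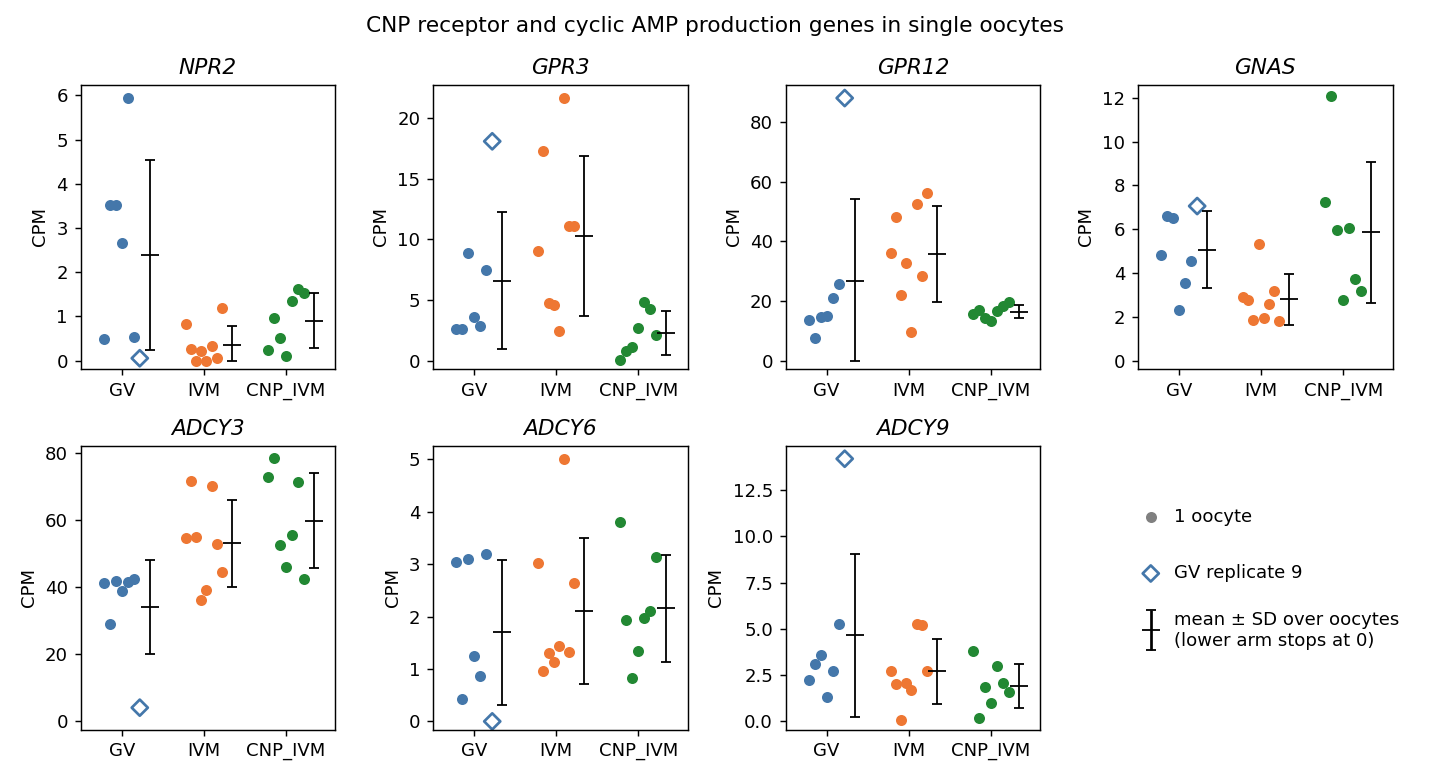
Levels of the 7 genes in CPM (vertical axes, a scale of its own for each gene) in every oocyte of the GV, IVM and CNP_IVM groups, with the mean ± SD over oocytes beside each group and GV replicate 9 as an open diamond. GPR12 sits between 13.2 and 19.7 CPM in the CNP_IVM oocytes and between 9.67 and 56.3 CPM in the IVM oocytes, and the diamond is the highest GV point for GPR3, GPR12, GNAS and ADCY9 and the lowest for NPR2, ADCY3 and ADCY6.

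Differences between groups are given as the log2 difference of the group means after 1 CPM was added to each, which understates differences of low genes, and a gene was counted as higher or lower at 2-fold on that scale. In IVM against GV oocytes, 0 of the 7 genes were at least 2-fold higher and 1 was lower (NPR2), where 15.9% of all genes past the filter were higher and 33.0% lower. In CNP_IVM against GV oocytes, 0 were higher and 1 was lower (GPR3), against 15.3% and 42.0% of all genes. In CNP_IVM against IVM oocytes, 0 were higher and 2 were lower (GPR3 and GPR12), against 1.86% and 14.8% of all genes. The median log2 difference of the 7 genes was 0.20, -0.66 and 0.03 in these comparisons, beside -0.28, -0.61 and -0.28 for all genes. Each pair of these comparisons shares 1 group of oocytes.

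Without GV replicate 9, GPR12 was at least 2-fold higher in IVM against GV (all genes 16.4% higher and 31.7% lower), and GPR3 was under 2-fold in CNP_IVM against GV (all genes 14.9% higher and 40.5% lower). The ranges of 2 groups failed to overlap for 0 of the 7 genes between IVM and GV (31.4% of all genes), for 1, ADCY3, between CNP_IVM and GV (40.9%) and for 0 between CNP_IVM and IVM (3.97%). How many genes counted as higher depends on the scaling. Of the genes past 2-fold, 32.4% were higher in IVM against GV, which became 43.8% with trimmed mean of M values (TMM) factors and 52.3% after quantile normalization. The same share was 26.8%, 43.2% and 52.6% between CNP_IVM and GV, and 11.1%, 31.5% and 39.7% between CNP_IVM and IVM.

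**Figure D2:**
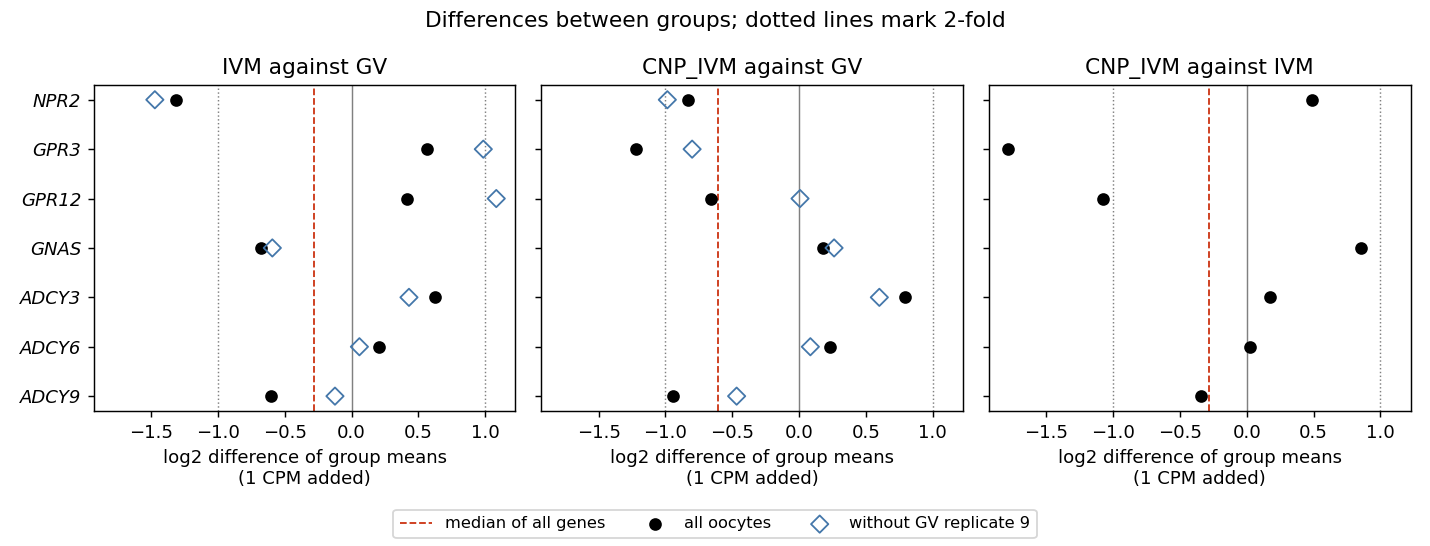
Log2 difference of group means with 1 CPM added (horizontal axis) for each of the 7 genes in the 3 comparisons: filled points use all oocytes, open diamonds leave out GV replicate 9, the dashed line is the median of all 11852 genes and the dotted lines mark 2-fold. GPR3 lies at -1.79 and GPR12 at -1.08 in CNP_IVM against IVM, left of the median of -0.28, and the other 5 genes lie between -0.34 and 0.85.

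NPR2, the receptor that CNP binds, was scarce in every group. In GV oocytes its level ran from 0.0545 CPM through a median of 2.65 to 5.94 CPM, with a mean of 2.39 ± 2.15 (SD, n = 7). Without GV replicate 9, which had 2 reads, the mean was 2.77 ± 2.07 (SD, n = 6). The GV oocytes fell into 4 at 2.65 CPM or more and 3 with 18 reads or fewer, so the mean describes few of them.

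After IVM the level of NPR2 ran from 0 through a median of 0.245 to 1.18 CPM, with a mean of 0.361 ± 0.427 (SD, n = 8). Replicates 5 and 7 had 0 reads, which allows up to 0.103 and 0.149 CPM (3 reads). After CNP_IVM the level ran from 0.103 through 0.968 to 1.63 CPM, with a mean of 0.905 ± 0.629 (SD, n = 7). The log2 difference from GV was -1.31 after IVM (-1.47 without GV replicate 9) and -0.83 after CNP_IVM (-0.99 without it, and 0.09 after quantile normalization), and that of CNP_IVM from IVM was 0.49. Each of the 4 GV oocytes with the most NPR2 lay above every IVM and every CNP_IVM oocyte, and 3 of 7 CNP_IVM oocytes lay above every IVM oocyte.

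The evidence behind these levels is thin: NPR2 had 510 reads over the 7 GV, 104 over the 8 IVM and 234 over the 7 CNP_IVM oocytes. Pooled over oocytes this is 2.30 CPM (exact 95% Poisson interval 2.10 to 2.51), 0.394 CPM (0.322 to 0.477) and 0.891 CPM (0.780 to 1.01), intervals that cover counting error only. Since NPR2 is known from cumulus cells, the summed cumulus and granulosa markers are the values to set beside it. Without STAR they averaged 225 CPM (185 to 260) in CNP_IVM and 252 CPM (219 to 325) in IVM oocytes, while mean NPR2 was 2.51 times higher in CNP_IVM oocytes. These sums hide markers that differed in opposite directions. HAS2 averaged 118 CPM in CNP_IVM and 77.1 CPM in IVM oocytes, and SERPINE2 10.7 and 55.0 CPM. The part of the markers in the NPR2 difference was not tested. With 5 CPM added in place of 1 CPM the log2 difference in IVM against GV was -0.46, and after quantile normalization it was -0.80, both under 2-fold.

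GPR3, the receptor whose loss in mice lets oocytes resume meiosis early, showed the widest difference between the maturation systems among the 7 genes. In GV oocytes it ran from 2.59 through a median of 3.63 to 18.1 CPM, with a mean of 6.60 ± 5.66 (SD, n = 7). GV replicate 9 was the highest, and the other 6 averaged 4.68 ± 2.77 (SD, n = 6) with a maximum of 8.88 CPM. After IVM it ran from 2.48 through 10.1 to 21.6 CPM, with a mean of 10.2 ± 6.59 (SD, n = 8).

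After CNP_IVM, GPR3 ran from 0.0793 through 2.13 to 4.82 CPM, with a mean of 2.26 ± 1.79 (SD, n = 7). The lowest of these oocytes, CNP_IVM replicate 1, had only 3 reads of GPR3 in 37852859. IVM oocytes averaged 4.53 times the CNP_IVM level, a log2 difference of -1.79 for CNP_IVM against IVM, or -1.50 relative to the median of all genes. Of the 8 IVM oocytes 5 lay above every CNP_IVM oocyte, and 4 of 7 CNP_IVM oocytes lay below every IVM oocyte, so the ranges met only in their inner parts. Only 2.35% of genes past the filter had a lower value in this comparison or the same one.

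Against GV oocytes, GPR3 differed by 0.57 after IVM and by -1.22 after CNP_IVM on the log2 scale, and by 0.98 and -0.80 without GV replicate 9. With that oocyte left out, 5 of 8 IVM oocytes lay above every GV oocyte and 4 of 7 CNP_IVM oocytes lay below every GV oocyte. The order of the means was thus IVM, GV and CNP_IVM, with overlap between neighbours. Under quantile normalization the difference of CNP_IVM from GV came to -0.06, and with TMM factors to -0.72, while that of CNP_IVM from IVM stayed at least 2-fold in every setting tried.

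GPR12, the close relative of GPR3 that also raises cyclic AMP without added ligand, had the same order of means between the maturation systems. In GV oocytes it ran from 7.71 through a median of 15.2 to 88.2 CPM, with a mean of 26.6 ± 27.7 (SD, n = 7). GV replicate 9 alone was above 25.8 CPM, and without it the mean was 16.4 ± 6.27 (SD, n = 6). After IVM it ran from 9.67 through 34.5 to 56.3 CPM, with a mean of 35.8 ± 16.002 (SD, n = 8).

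After CNP_IVM, GPR12 ran from 13.2 through 16.8 to 19.7 CPM, with a mean of 16.5 ± 2.24 (SD, n = 7). Its scatter there was narrow, with a coefficient of variation of 13.6% against 44.7% in IVM and 38.3% in the 6 other GV oocytes. A narrower scatter in CNP_IVM than in IVM was not particular to GPR12. ADORA2B, an adenosine receptor gene, had 15.9% against 52.3%, and STAR 13.8% against 29.2%. GPR3 and GNAS went the other way, at 79.0% against 64.3% and 54.8% against 41.2%. IVM oocytes averaged 2.17 times the CNP_IVM level of GPR12, and the log2 difference of CNP_IVM from IVM was -1.08. All IVM oocytes but replicate 7, at 9.67 CPM, lay above every CNP_IVM oocyte (7 of 8). This difference sits close to 2-fold: it was -0.98 without IVM replicate 8, -0.96 without IVM replicate 10, -0.78 with TMM factors and -0.69 after quantile normalization.

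Against GV oocytes the account of GPR12 turns on replicate 9. With it, the log2 difference was 0.41 after IVM and -0.66 after CNP_IVM, the last of which came to 0.13 after quantile normalization. Without it, these were 1.08 and 0.01, and 6 of 8 IVM oocytes lay above every GV oocyte. The mean of the CNP_IVM oocytes was then 1.00 times that of the GV oocytes. In plain CPM without replicate 9, GPR12 after CNP pre-maturation thus stood at the GV level, with the conventionally matured oocytes averaging above it. On the log2 scale the middle gene past the filter then lay at -0.53 after CNP_IVM and -0.21 after IVM. Against that gene, GPR12 was higher after CNP pre-maturation than in GV oocytes, so the match with GV depends on the scaling.

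**Figure D3:**
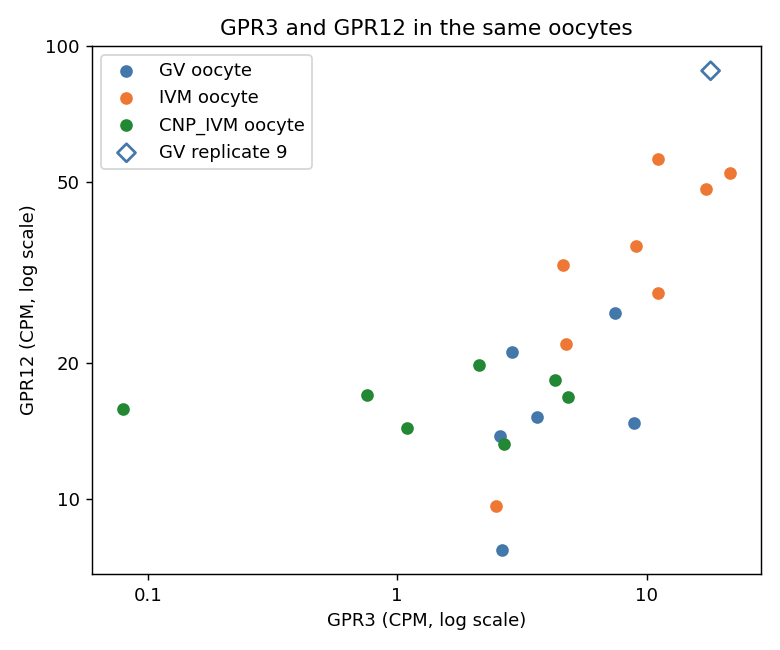
GPR3 (horizontal axis) against GPR12 (vertical axis), both in CPM on log scales, 1 point per oocyte coloured by group, with GV replicate 9 as an open diamond. The 5 IVM oocytes with the most GPR3 lie up and to the right of every CNP_IVM oocyte, while the CNP_IVM oocytes form a flat band from 0.0793 to 4.82 CPM of GPR3 at 13.2 to 19.7 CPM of GPR12.

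The receptor genes also varied together from oocyte to oocyte, most closely in the IVM group. Over all 22 oocytes the Pearson correlation of log2(CPM + 1) between GPR3 and GPR12 was 0.75, and 0.72 without GV replicate 9. Within groups it was 0.85 over the 8 IVM oocytes, 0.81 over the 7 GV oocytes (0.45 without replicate 9) and 0.21 over the 7 CNP_IVM oocytes. These are descriptions of oocytes that share a library total between the values on both axes. The ratio of GPR12 to GPR3 reads had a median of 4.18 in GV, 3.96 in IVM and 9.28 in CNP_IVM oocytes. Apart from CNP_IVM replicate 1, with 3 GPR3 reads beside 599 GPR12 reads, the ratio ran from 3.48 to 22.4 after CNP_IVM and from 2.43 to 7.11 after IVM.

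In the IVM group other properties of the libraries moved with the receptor levels. The 3 IVM oocytes with the fewest detected genes, replicates 5, 6 and 7 (9460, 9817 and 9431 genes), had the lowest GPR3 of that group, at 4.77, 4.62 and 2.48 CPM. In the other 5 IVM oocytes, with 10400 to 10783 genes, GPR3 was 9.04 to 21.6 CPM. The same 3 oocytes had 415 to 488 CPM of summed cumulus and granulosa markers, where the other 5 had 568 to 734 CPM. Over the 8 IVM oocytes, log2 GPR3 had a Pearson correlation of 0.86 with the number of detected genes and 0.89 with the summed markers (0.75 without STAR). GPR12 had 0.74 and 0.70 (0.43 without STAR), and 0.80 with the library total. These relations were not particular to GPR3 and GPR12. With detected genes and summed markers, ADCY9 had 0.79 and 0.82, ADCY3 0.57 and 0.62, and ADCY6 0.56 and 0.54. NPR2 had 0.56 and 0.34, and GNAS 0.17 and 0.19.

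The other groups did not share all of these relations. With the number of detected genes GPR3 had a correlation of 0.08 over the CNP_IVM oocytes and of -0.72 over the GV oocytes (0.27 without replicate 9), and GPR12 had 0.15 and -0.79 (0.83 without replicate 9). With the library total GPR12 had -0.62 over the CNP_IVM oocytes and 0.95 over the GV oocytes (0.96 without replicate 9). With the summed cumulus and granulosa markers the correlations were positive here too. GPR3 had 0.50 over the CNP_IVM oocytes and 0.89 over the GV oocytes (0.72 without replicate 9), and GPR12 had 0.40 and 0.85 (0.45). With STAR left out of the sum, GPR3 had 0.525 and 0.62 (-0.01 without replicate 9), and GPR12 0.31 and 0.93 (0.76).

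CNP_IVM oocytes had both fewer detected genes and lower marker sums than most IVM oocytes, the latter mainly through STAR. The part of either in the GPR3 and GPR12 differences was not tested. Between CNP_IVM and IVM oocytes, 3 of the 16 cumulus and granulosa markers that passed the filter were lower by 2-fold or more. Of the rest, 0 were higher and 13 differed by less. The lower share was thus 18.8%, beside 14.8% of all genes, and 1.86% of all genes were higher. The lower markers were STAR, SERPINE2 (10.7 CPM in CNP_IVM, 55.0 in IVM) and CYP19A1 (0.863 and 2.93). HAS2, which makes the hyaluronan of the expanding cumulus, averaged 118 CPM in CNP_IVM against 77.1 CPM in IVM oocytes. FSHR, a defining receptor of granulosa cells, averaged 0.321 CPM or less in every group, with or without GV replicate 9.

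**Figure D4:**
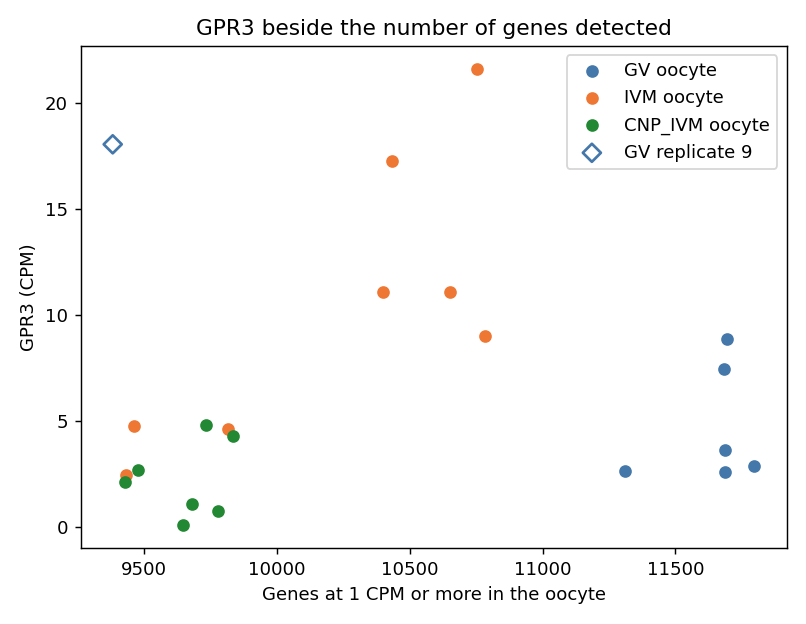
GPR3 in CPM (vertical axis) against how many genes reached 1 CPM in the same oocyte (horizontal axis), coloured by group, with GV replicate 9 as an open diamond. The 3 IVM oocytes with 9817 or fewer detected genes stand at 2.48 to 4.77 CPM, within the span of the CNP_IVM oocytes, and the other 5 at 9.04 CPM or more.

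GNAS, which carries the signal from these receptors to adenylyl cyclase, differed in the opposite direction between the maturation systems. In GV oocytes it ran from 2.32 through a median of 4.84 to 7.06 CPM, with a mean of 5.06 ± 1.76 (SD, n = 7), or 4.72 ± 1.67 (SD, n = 6) without replicate 9, the highest. After IVM it ran from 1.83 through 2.67 to 5.35 CPM, with a mean of 2.79 ± 1.15 (SD, n = 8), and 7 of the 8 oocytes were at 3.16 CPM or less. After CNP_IVM it ran from 2.77 through 5.99 to 12.1 CPM, with a mean of 5.86 ± 3.21 (SD, n = 7).

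The CNP_IVM mean of GNAS was 2.10 times the IVM mean, and 4 of 7 CNP_IVM oocytes lay above every IVM oocyte. On the log2 scale with 1 CPM added the difference was 0.85, under 2-fold, or 1.14 relative to the median of all genes, and 97.0% of genes past the filter had a lower value or the same one. It passed 2-fold with TMM factors (1.08), after quantile normalization (1.14), with 0.1 CPM added (1.04) and without IVM replicate 6 (1.00). Against GV oocytes GNAS differed by -0.67 after IVM (-0.59 without GV replicate 9, and 0.06 after quantile normalization). After CNP_IVM it differed from GV by 0.18 (0.26 without GV replicate 9, -0.06 without CNP_IVM replicate 2, and 1.21 after quantile normalization). Of the 7 CNP_IVM oocytes 2 lay above every GV oocyte and the other 5 within the GV range.

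GNAS is a complex gene, with 15 transcripts in RefSeq for the cattle assembly ARS-UCD2.0 and 3 other annotated genes overlapping its span, none of them in the table. Whether the authors' counting used strand is not given in the sources used here, so reads of GNAS and of an overlapping or antisense transcript cannot be told apart.

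ADCY3, a cyclase known from olfactory neurons and many other cells, averaged higher in matured than in GV oocytes. In GV oocytes it ran from 4.09 through a median of 41.4 to 42.3 CPM, with a mean of 34.1 ± 14.0 (SD, n = 7). GV replicate 9 held the low value, and the other 6 lay between 29.2 and 42.3 CPM with a mean of 39.1 ± 5.03 (SD, n = 6). After IVM it ran from 36.2 through 53.7 to 71.7 CPM, with a mean of 53.0 ± 13.1 (SD, n = 8).

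After CNP_IVM, ADCY3 ran from 42.5 through 55.4 to 78.4 CPM, with a mean of 59.8 ± 14.2 (SD, n = 7). All 7 CNP_IVM oocytes and 6 of 8 IVM oocytes lay above every GV oocyte, though the gap between the lowest CNP_IVM and the highest GV oocyte was small. The log2 difference from GV was 0.62 after IVM and 0.79 after CNP_IVM (0.43 and 0.60 without GV replicate 9), under 2-fold in both. Relative to the median of all genes it was 0.90 and 1.40, and with TMM factors the CNP_IVM difference was 1.30. Between the maturation systems ADCY3 differed by 0.17, with overlapping ranges. Its span overlaps that of CENPO, a centromere protein gene that is also in the table, and reads shared between them could have been split or dropped in the authors' counting.

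ADCY6 averaged 1.70 ± 1.38 CPM in GV (SD, n = 7), 2.10 ± 1.39 in IVM (SD, n = 8) and 2.16 ± 1.02 in CNP_IVM oocytes (SD, n = 7). Its ranges were 0 to 3.19, 0.959 to 5.01 and 0.819 to 3.80 CPM, with medians of 1.24, 1.38 and 1.98 CPM. GV replicate 9 had no read, which allows up to 0.0817 CPM, and the other 6 GV oocytes averaged 1.98 ± 1.26 CPM (SD, n = 6). The log2 difference from GV was 0.20 after IVM and 0.23 after CNP_IVM (0.06 and 0.08 without GV replicate 9), and that between the maturation systems was 0.03. All ranges overlapped widely. ADCY6 is a cyclase that calcium and the inhibitory G protein hold down. Under quantile normalization its difference of CNP_IVM from GV came to 1.37.

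ADCY9, a widely expressed cyclase, had its highest mean in GV oocytes, at 4.64 ± 4.38 CPM (SD, n = 7), with a range from 1.34 through a median of 3.11 to 14.2 CPM. Replicate 9 was again the extreme, and without it the mean was 3.05 ± 1.33 CPM (SD, n = 6). IVM oocytes averaged 2.72 ± 1.76 CPM (SD, n = 8, range 0.0686 to 5.29, median 2.38) and CNP_IVM oocytes 1.93 ± 1.20 CPM (SD, n = 7, range 0.209 to 3.80, median 1.84). The log2 difference from GV was -0.60 after IVM and -0.95 after CNP_IVM (-0.12 and -0.47 without replicate 9), and that of CNP_IVM from IVM was -0.34. All 3 turned positive after quantile normalization (0.04, 0.21 and 0.16), and all ranges overlapped.

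Reads that fell on the adenylyl cyclase genes differed between groups in their makeup more than in their sum. The 8 cyclase genes of the table summed to 87.2 ± 17.1 CPM in GV (SD, n = 7), 79.2 ± 23.8 in IVM (SD, n = 8) and 82.7 ± 17.5 in CNP_IVM oocytes (SD, n = 7), and 91.9 ± 12.8 CPM in GV oocytes without replicate 9 (SD, n = 6). Longer transcripts collect more reads, so these shares are compared only between groups. ADCY3 took 37.7% ± 14.1 of cyclase reads in GV oocytes (SD, n = 7), or 42.8% ± 4.25 with a range of 38.9 to 48.4% without replicate 9. It took 68.4% ± 9.08 after IVM (SD, n = 8, range 55.0 to 78.7%) and 72.3% ± 6.83 after CNP_IVM (SD, n = 7, range 62.4 to 79.8%). Every matured oocyte therefore had a larger ADCY3 share than every GV oocyte.

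The share of ADCY5 was smaller in matured oocytes. ADCY5, a cyclase best known from brain and heart, averaged 17.3 CPM in GV oocytes (8.27 to 24.3, and 17.01 on average without replicate 9), 2.00 CPM after IVM (0.165 to 4.60) and 0.802 CPM after CNP_IVM (0 to 3.33). Every matured oocyte lay below every GV oocyte, and the log2 difference from GV was -2.61 after IVM and -3.34 after CNP_IVM. Its share of cyclase reads went from 20.3% in GV (18.3% without replicate 9) to 2.35% in IVM and 0.871% in CNP_IVM oocytes. ADCY2 averaged 20.2 CPM in GV (22.4 without replicate 9), 14.7 in IVM and 13.7 in CNP_IVM oocytes, differences under 2-fold.

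**Figure D5:**
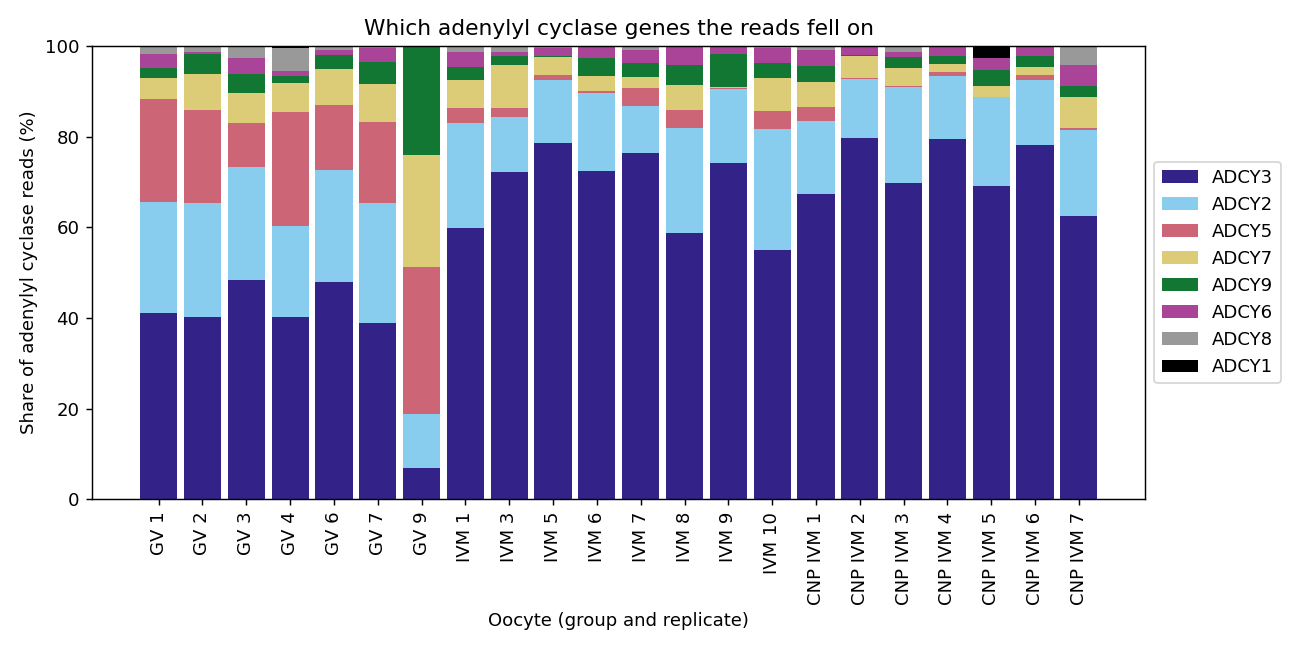
Share of adenylyl cyclase reads (vertical axis, percent) that fell on each of 8 genes in every oocyte (bars, by group and replicate), not corrected for transcript length. The ADCY3 segment covers 38.9 to 48.4% in the GV oocytes other than replicate 9 and 55.0 to 79.8% in matured oocytes, and the ADCY5 segment averages 20.3% in GV, 2.35% in IVM and 0.871% in CNP_IVM oocytes.

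The rest of the pathway was followed in 6 lists with 117 genes in the table, of which 90 passed the filter. In IVM against GV oocytes 10 of these 90 were at least 2-fold higher, 22 lower and 58 under 2-fold. Between CNP_IVM and GV the counts were 9, 36 and 45, and between CNP_IVM and IVM they were 1, 14 and 75. In percent, 11.1% were higher and 24.4% lower after IVM than in GV oocytes (15.9% and 33.0% of all genes), and 1.11% and 15.6% between the maturation systems (1.86% and 14.8%). The 9 higher and 36 lower of 90 after CNP_IVM, against GV, stand beside 15.3% and 42.0% of all genes. Without GV replicate 9 the counts of higher and lower genes were 11 and 21 after IVM and 9 and 33 after CNP_IVM, against GV. Medians of the 90 genes were -0.26, -0.52 and -0.27 on the log2 scale, close to those of all genes. Genes from each list are described here, with no test.

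Of 5 genes for natriuretic peptide signalling and cyclic GMP past the filter, 1 was higher than in GV oocytes in both matured groups (15.9% and 15.3% of all genes were) and 4 were under 2-fold. The higher one was PRKG1, a cyclic GMP-dependent protein kinase, at 49.9 ± 8.13 CPM in GV (SD, n = 7, and 49.3 CPM without replicate 9), 114 ± 28.2 in IVM (SD, n = 8) and 104 ± 36.2 in CNP_IVM oocytes (SD, n = 7), with every matured oocyte above every GV oocyte. NPR1, the receptor of the atrial and B-type peptides, averaged 0.174 CPM in GV (0.203 without replicate 9), 0.580 in IVM and 0.532 in CNP_IVM oocytes. NPR3, the clearance receptor for natriuretic peptides, averaged 1.82 CPM in GV (0.816 without replicate 9, which had 7.82), 0.118 in IVM and 0.462 in CNP_IVM oocytes. Its log2 difference in IVM against GV was -1.33, and -0.70 without replicate 9. NPPC, which encodes CNP, and GPR6, a relative of GPR3, were not analysed here.

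Of 8 other genes of receptors that couple to the stimulatory G protein, 2 were higher and 2 lower after IVM than in GV oocytes. The counts were 0 and 4 for CNP_IVM against GV, and 0 and 2 for CNP_IVM against IVM. Without GV replicate 9 they were 1 and 2 for IVM and 0 and 3 for CNP_IVM, against GV. Of all genes, 15.9% were higher and 33.0% lower in IVM against GV. These shares were 15.3% and 42.0% in CNP_IVM against GV, and 1.86% and 14.8% in CNP_IVM against IVM. ADORA2B, an adenosine receptor, averaged 55.6 ± 28.3 CPM in GV (SD, n = 7, and 46.5 CPM without replicate 9), 172 ± 90.0 in IVM (SD, n = 8) and 55.2 ± 8.76 in CNP_IVM oocytes (SD, n = 7), and 7 of 8 IVM oocytes lay above every CNP_IVM oocyte. The log2 difference was 1.61 in IVM against GV (1.86 without replicate 9), -0.01 in CNP_IVM against GV (0.24) and -1.62 between the maturation systems. DRD5, a dopamine receptor, was instead lower in both matured groups than in GV oocytes, at means of 13.9 CPM in GV, 5.38 in IVM and 0.569 in CNP_IVM oocytes. Its GV mean was 10.2 CPM without replicate 9. The log2 difference of DRD5 in IVM against GV was -1.23 with that oocyte and -0.82 without it.

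Among 19 other G protein subunit genes past the filter, 1 was higher and 5 lower after IVM than in GV oocytes. The counts were 2 and 9 for CNP_IVM against GV, and 0 and 4 for CNP_IVM against IVM. In percent, 26.3%, 47.4% and 21.1% were lower, beside 33.0%, 42.0% and 14.8% of all genes. Higher were 5.26%, 10.5% and 0%, beside 15.9%, 15.3% and 1.86% of all genes. GNAI2, an inhibitory alpha subunit that opposes the product of GNAS, averaged 11.1 CPM in GV (6.36 without replicate 9), 11.3 in IVM and 2.47 in CNP_IVM oocytes, a log2 difference of -1.82 in CNP_IVM against IVM. Of the 8 IVM oocytes 5 lay above every CNP_IVM oocyte. This was not shared by the inhibitory alpha subunit genes GNAI1 and GNAI3. They averaged 96.5 and 88.6 CPM in IVM and 103 and 76.9 CPM in CNP_IVM oocytes, with overlapping ranges. GNA14, an alpha subunit of the phospholipase C branch, averaged 25.9 CPM in GV (24.3 without replicate 9), 22.0 in IVM and 7.93 in CNP_IVM oocytes. GNA11, also of the phospholipase C branch, was higher after maturation, at 17.7 CPM in GV (20.5 without replicate 9), 51.4 in IVM and 49.6 in CNP_IVM oocytes. The gamma subunit gene GNG4 averaged 134 CPM in GV (123 without replicate 9), 22.6 in IVM and 18.4 in CNP_IVM oocytes, and GNG3 31.1 (27.3), 4.03 and 4.04 CPM.

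Of 23 regulators of G proteins and receptors, 10 were lower and 1 higher in IVM against GV, and 12 and 2 in CNP_IVM against GV. Lower genes were thus 43.5% and 52.2% of the list, beside 33.0% and 42.0% of all genes, and without GV replicate 9 they numbered 9 and 13. Higher genes were 4.35% and 8.70% of the list, beside 15.9% and 15.3% of all genes. RGS10, which speeds up GTP hydrolysis by inhibitory alpha subunits, averaged 275 CPM in GV oocytes (196 to 388, and 288 on average without replicate 9), 10.6 after IVM (5.77 to 17.6) and 12.8 after CNP_IVM (9.96 to 22.0). SNX13, a sorting nexin with a regulator domain for the GNAS product, averaged 11.2 CPM in GV (13.03 without replicate 9), 30.8 in IVM and 31.2 in CNP_IVM oocytes. In CNP_IVM against IVM 0 of the 23 were higher and 3 lower, beside 1.86% and 14.8% of all genes.

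In the list of cyclic AMP breakdown, export and receptors, 29 genes passed the filter, and 5 were higher and 4 lower after IVM than in GV oocytes. The counts were 4 and 8 for CNP_IVM against GV, and 1 and 4 for CNP_IVM against IVM. Lower genes were 13.8%, 27.6% and 13.8% of the list, beside 33.0%, 42.0% and 14.8% of all genes. Higher genes were 17.2%, 13.8% and 3.45% of the list, beside 15.9%, 15.3% and 1.86% of all genes. PDE3A, the oocyte phosphodiesterase that cyclic GMP inhibits, averaged 8.40 ± 4.44 CPM in GV (SD, n = 7, and 9.80 CPM without replicate 9), 38.6 ± 16.3 in IVM (SD, n = 8) and 25.9 ± 5.86 in CNP_IVM oocytes (SD, n = 7). Every matured oocyte lay above every GV oocyte, and the groups of matured oocytes overlapped, with a log2 difference of -0.56. PRKACB, a catalytic subunit of the cyclic AMP-dependent kinase, averaged 14.4 CPM in GV (11.97 without replicate 9), 40.7 in IVM and 42.7 in CNP_IVM oocytes, and CREB1, a transcription factor that this kinase phosphorylates, 29.1 (30.2), 6.58 and 5.77 CPM. GJA4, the gap junction protein through which cyclic GMP reaches the oocyte, averaged 108 CPM in IVM (6.52 to 249) and 11.1 CPM in CNP_IVM oocytes (4.85 to 23.3), and 7 of 8 IVM oocytes lay above every CNP_IVM oocyte. Its GV mean of 187 CPM rested on replicate 9, at 972 CPM, and was 56.4 CPM without it, so the log2 difference of IVM from GV was -0.79 with that oocyte and 0.92 without it.

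For each member, the genes most like it were taken by Pearson correlation of log2(CPM + 1) over the 22 oocytes, among 8368 genes with a mean of at least 5 CPM. Those nearest to GPR3 were CSTF2 (0.91), B3GALNT2 (0.91) and SEMA4B (0.91), and those nearest to GPR12 were PRSS23 (0.93), TUBG2 (0.90) and TMEM150A (0.88). ADCY3 was followed most closely by HOMER2 (0.96), SLC26A6 (0.96) and ARFGEF2 (0.96), values that came to 0.84, 0.82 and 0.83 without GV replicate 9. GNAS was nearest to RASSF3 (0.83), ADCY9 to ITPK1 (0.86), ADCY6 to TTC30A (0.76) and NPR2 to CCNE2 (0.75). The genes share libraries and group differences with the members. Within groups the correlation was 0.85 for GPR3 with CSTF2, 0.91 for GPR12 with PRSS23, 0.74 for GNAS with RASSF3 and 0.62 for NPR2 with CCNE2. Among the members themselves, GPR3 with GPR12 was the highest pair over all oocytes and ADCY3 with ADCY9 the most negative, at -0.56, which came to -0.11 without GV replicate 9.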

How the data were processed

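The authors deposited 1 table of CPM (counts scaled to the library total) for single oocytes. It is named for another unit, but every value in a library is a whole multiple of the worth of 1 read, the same for all genes, and 100% of values gave whole reads within 0.01 read. Per the submitters' processing notes, HISAT2 2.2.1, featureCounts 2.0.1, Trim Galore 0.6.7, edgeR and FastQC were used, with a mouse build, GRCm39, whereas 13356 of 13502 gene names are cattle symbols of ARS-UCD2.0, so no coordinates are printed. Columns were matched to samples by the labels' column names and groups were taken from titles. Of 29 labelled samples, 22 had a column and 7 were not analysed here. No pair of libraries of a group was a copy: chi-square divided by its degrees of freedom was at least 38.0, over genes with 20 or more reads.

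Between 97.1 and 97.6% of reads lay in listed genes, and 1 read was worth 0.0254 to 0.0496 CPM. Group means, SDs, ranges and log2 differences (1 CPM added) were computed for the 11852 genes that reached 1 CPM in 6 or more libraries, with Python 3.11.15, numpy 2.4.6, pandas 2.3.3 and scipy 1.17.1. TMM factors came from edgeR 4.0.16 in R 4.3.3. Recovered reads would take a count test, but with no donor named the groups have no replicates beyond oocytes, so none was run. The steps were tested on simulated reads. The 7 genes, the lists and the comparisons were chosen with earlier results of these data known.

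Named genes were all 7 members and NPPC, NPR1, NPR3, GPR6 and PDE3A. Beyond these, each list gave up to 2 genes per direction and comparison with the largest differences among those at 10 CPM or more in either group and at least 2-fold apart, and each member the 3 most correlated genes. Of these, not all are printed. ADCY2, GNAI1, GNAI3, STAR, BTG4, VWF, SERPINE2, CYP19A1, HAS2, FSHR, the marker sums without their most abundant gene and the values of ADCY5 by share were added after their values were seen. Alternatives were 0.1 or 5 CPM added, no filter or 5 CPM, TMM, quantile normalization, group medians, means of log2 and leaving out each oocyte.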

Additional observations from a re-analysis of the deposited data

Results flagged for a closer look

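Each of the 7 genes was examined in each of the 3 groups for a single oocyte set apart from the rest by a wide gap, and 5 of 21 sets held one. The cut-off marks about 1 in 20 sets of independent, normally distributed values. The 7 sets of a group share the same oocytes, so 5 of 21 cannot be read against that rate. GV replicate 9, the oocyte with conflicting labels, accounts for 4 of the 5. It had 18.1 CPM of GPR3 where the other GV oocytes had 2.59 to 8.88, 88.2 CPM of GPR12 where they had 7.71 to 25.8, and 14.2 CPM of ADCY9 where they had 1.34 to 5.26. In the other direction it had 4.09 CPM of ADCY3 where they had 29.2 to 42.3. The remaining value is GNAS in IVM replicate 6, at 5.35 CPM where the other IVM oocytes had 1.83 to 3.16.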

How the results depend on the processing

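No paired analysis was possible because the results come from no test and the labels tie no replicate number to an animal. No value past 2-fold as reported changed sign, but NPR2 and ADCY9 in CNP_IVM against GV, at -0.83 and -0.95 as reported, came to 0.09 and 0.21 after quantile normalization. GPR3 in CNP_IVM against IVM stayed at least 2-fold lower throughout (-2.13 to -1.07 over settings, -1.99 to -1.56 leaving out each oocyte). Of 53 member values under other settings per comparison, 50 (IVM against GV), 46 (CNP_IVM against GV) and 52 (CNP_IVM against IVM) stayed within 1 SD, and 5, 11 and 9 crossed 2-fold. NPR2 and ADCY9 in CNP_IVM against GV passed it with 0.1 CPM added (-1.31 and -1.22), and ADCY9 also without GV replicate 1, 2, 4 or 6 or CNP_IVM replicate 1 or 5 (-1.11 to -1.01). GPR3 and GPR12 in IVM against GV passed it with group medians (1.26 and 1.14).

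TMM moved the median of all genes by 0.23, 0.45 and 0.23 in the same order, and quantile normalization by 0.43, 0.75 and 0.29. Counts past 2-fold moved by over 1.5 times as follows. In IVM against GV, pathway genes lower came to 12 with 5 CPM added, pathway genes higher to 16 with TMM, and quantile normalization gave 3132 genes higher with 22 pathway genes higher and 13 lower. In CNP_IVM against GV, pathway genes lower came to 23 with 5 CPM added. TMM gave 3012 genes and 15 pathway genes higher, and quantile normalization 3537 genes higher and 3187 lower, with 24 and 21 pathway genes. In CNP_IVM against IVM, 0.1 CPM added gave 395 genes higher and 2793 lower with 3 and 23 pathway genes, and 5 CPM added gave 113 and 743 with 0 and 4. The filter at 5 CPM left 0 pathway genes higher, TMM gave 457 genes higher and 992 lower with 2 pathway genes higher, and quantile normalization gave 463 and 704 with 3 and 6. Leaving out each oocyte gave 1 to 2 pathway genes higher. The cause of these shifts was not tested. Depth limits NPR2 most, since 3 reads are 0.0763 to 0.149 CPM.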
